A study of Mus musculus with 8 samples.

Results

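The genes described here encode nuclear subunits of the mitochondrial respiratory chain and ATP synthase, measured in mouse liver after arsenite exposure on a high-fat or a low-fat diet. They were chosen by name, as every transcript cluster (a set of probes that the array reads as 1 transcribed unit) whose annotated symbol begins with Nduf, Uqcr, Cox4 to Cox8 or Atp5, or is Sdha, Sdhb, Sdhc or Sdhd, with no filter on signal. This gave 120 of the 35556 clusters on the array and 91 distinct genes. Grouped by symbol, 35 of these encode complex I subunits, 7 complex I assembly factors, 4 complex II, 8 complex III and 12 complex IV. A further 7 are complex IV isoforms known from muscle, lung or testis, and 17 encode ATP synthase. The remaining one, Ndufa4l2, is a paralogue of the complex IV subunit Ndufa4. For 20 genes several clusters met the rule, and the brightest one stands for the gene below.

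Male C57BL/6J mice of unstated age formed 4 groups of 10. HFD+As mice ate a high-fat diet (42% of calories from fat) and drank deionized water to which sodium arsenite was added (3 mg iAs/L, iAs being inorganic arsenic). HFD mice ate the same diet with deionized water, LFD+As mice ate a low-fat diet (13% of calories from fat) with the arsenite water, and LFD mice ate the low-fat diet with deionized water. Exposure lasted 10 weeks per the protocols, while the source label gives 90 days. RNA extracted from each mouse was pooled in equal amounts from 5 mice, so each group has 2 arrays (replicate 1 and replicate 2), and every p-value measures the spread between pools and not between mice. The C57BL/6J strain carries a deletion in Nnt, the mitochondrial transhydrogenase gene, and a short allele of Cox7a2l, and all 4 groups share that background.

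The respiratory chain passes electrons from NADH (through complex I) and succinate (through complex II) by way of coenzyme Q, complex III and cytochrome c to oxygen at complex IV, and complexes I, III and IV pump protons across the inner mitochondrial membrane. ATP synthase lets the protons flow back through its membrane sector and uses that flow to make ATP in its F1 head. Each complex except complex II also holds subunits encoded by mitochondrial DNA. In hepatocytes, which are rich in mitochondria, the chain burns fatty acids and supplies the ATP for glucose and urea synthesis.

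Several transcription factors are known to act at promoters of such genes, among them NRF1, GABPA of the ETS family, YY1 and the estrogen-related receptors. RefSeq promoter windows (GRCm38.p6, 250 bases before to 50 after the start) were available for 75 of the 91 genes. The palindromic NRF1 motif of 10 bases, printed in capitals in the Atp5k and Ndufa11 sequences below, stood on either strand in 7 of them (9.33%, against 1.07% of 27025 genes), namely Atp5g2, Atp5k, Cox6a1, Ndufa11, Ndufaf4, Ndufaf5 and Uqcrc1. A looser form with any base at position 5, which includes the first, stood in 18 members (24%, against 5.19%). The YY1 core motif was found in 5 members (6.67%, against 0.995%), the ETS letters CCGGAAGT in 5 (6.67%, against 4.31%) and the estrogen-related receptor letters TCAAGGTCA in 2 (2.67%, against 0.466%). These are matches of letters and not measured binding sites.

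The 250 bases upstream of 4 members are shown because the results below turn on them or because they hold the NRF1 motif. Atp5l and Sdha were the member with the largest rise and the single member that fell, and Atp5k and Ndufa11 rose. Of the other members with the NRF1 motif, Atp5g2, Cox6a1, Ndufaf4 and Uqcrc1 were not called in HFD+As against LFD. Ndufaf5 was too dim for that test. Capitals mark the NRF1 motif or its looser form on either strand. The windows lie at chr9:44920743-44920992, minus strand, for Atp5l, at chr13:74350241-74350490, minus strand, for Sdha, at chr5:108434400-108434649, minus strand, for Atp5k, and at chr17:56717512-56717761, plus strand, for Ndufa11.
Atp5l: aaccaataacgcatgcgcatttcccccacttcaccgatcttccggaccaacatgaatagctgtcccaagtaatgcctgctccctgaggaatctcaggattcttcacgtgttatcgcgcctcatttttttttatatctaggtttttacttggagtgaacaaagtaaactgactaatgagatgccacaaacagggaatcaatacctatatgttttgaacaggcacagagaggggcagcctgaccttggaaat
Sdha: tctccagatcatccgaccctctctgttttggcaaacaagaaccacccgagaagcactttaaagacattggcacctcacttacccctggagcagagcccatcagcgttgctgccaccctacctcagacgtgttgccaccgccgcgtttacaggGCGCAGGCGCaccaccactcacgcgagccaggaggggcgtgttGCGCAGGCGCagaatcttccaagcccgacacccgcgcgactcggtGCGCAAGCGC
Atp5k: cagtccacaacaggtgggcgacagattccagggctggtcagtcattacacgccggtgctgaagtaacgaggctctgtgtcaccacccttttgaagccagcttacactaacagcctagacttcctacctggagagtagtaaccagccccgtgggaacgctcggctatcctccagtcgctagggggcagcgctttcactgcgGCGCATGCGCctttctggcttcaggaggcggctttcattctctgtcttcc
Ndufa11: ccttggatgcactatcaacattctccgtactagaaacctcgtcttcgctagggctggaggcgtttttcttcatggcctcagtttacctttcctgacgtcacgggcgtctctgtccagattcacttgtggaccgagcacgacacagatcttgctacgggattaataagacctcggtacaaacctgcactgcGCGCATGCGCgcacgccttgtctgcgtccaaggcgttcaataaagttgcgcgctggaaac
The Atp5k match begins 50 bases before the start and the Ndufa11 match 60. Sdha holds 3 matches of the looser form, at 98, 55 and 10 bases before its start, and the Atp5l window holds none of the searched motifs.

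Levels are given as deposited log2 signals, in which a difference of 1 is a doubling. The tissue label fitted its markers, since 8 hepatocyte markers averaged between 13.71 and 13.86 on every array, while striated muscle markers stayed between 7.08 and 7.19 and adipocyte markers between 6.02 and 6.27. In pooled tissue, fewer cells of a type and less RNA per cell cannot be told apart. limma was fitted in 2 ways, over all 35556 clusters and over the 11963 brighter genes (1 symbol, brightest cluster, mean signal of at least 6.975), and a gene was called at a Benjamini-Hochberg adjusted p under 0.05. Of the 91 genes, 85 were among the brighter genes. Ndufaf5, Cox7b2, Cox8b and Ndufa4l2 were dimmer, and the clusters of Ndufb4b and Cox7c carry several symbols. The fit over all clusters called 0 of the 120 member clusters, and 0% of all clusters, in each of the 6 comparisons. Its smallest adjusted p for a member was 0.0972 (limma), reached in HFD+As against LFD, where 52 member clusters had an unadjusted p under 0.05 (43.3%, against 17.4% of all clusters). That count takes some genes several times. In the fit over brighter genes, with 1 cluster per gene, it was 38 of 85 members (44.7%, against 30.8% of brighter genes). "Rose" and "fell" below refer to the limma fit over brighter genes.

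HFD+As livers had higher signals than LFD livers for members of complexes I, III and IV and ATP synthase and for 1 assembly factor. Of the 85 members tested, 21 were called (24.7%, against 16% of brighter genes), of which 20 rose (23.5%, against 3.59% of brighter genes) and 1 fell (1.18%, against 12.4%). Complex I gave 12 of the risers, Ndufs6, Ndufb8, Ndufa7, Ndufa2, Ndufb2, Ndufs5, Ndufa1, Ndufb5, Ndufb11, Ndufa11, Ndufb9 and Ndufa12. Complex III gave Uqcr10, Uqcrh and Uqcrq, ATP synthase gave Atp5l, Atp5md and Atp5k, and the assembly factors gave Ndufaf2. Cox7a2l also rose. It was counted under complex IV by its symbol, and no other gene of that group was called. Over the 91 genes the median difference was 0.22 with 71 above 0, while the median over brighter genes was -0.10 with 3993 of 11963 above 0. The groups did not overlap in 45 tested members that were higher in HFD+As (52.9%, against 13.5% of brighter genes) and in 9 that were lower (10.6%, against 41.4%).

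The calls depended on individual pools. Most of the 21 were lost without HFD+As replicate 1 or LFD replicate 2, and fewer of them without LFD replicate 1. Calls over all brighter genes also became fewer in each of these fits. The median over the 85 tested members, 0.235, became 0.206 without HFD+As replicate 1, 0.161 without LFD replicate 2 and 0.303 without LFD replicate 1. Atp5l was the one member called in HFD+As against LFD with any 1 array left out.

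**Figure D1:**
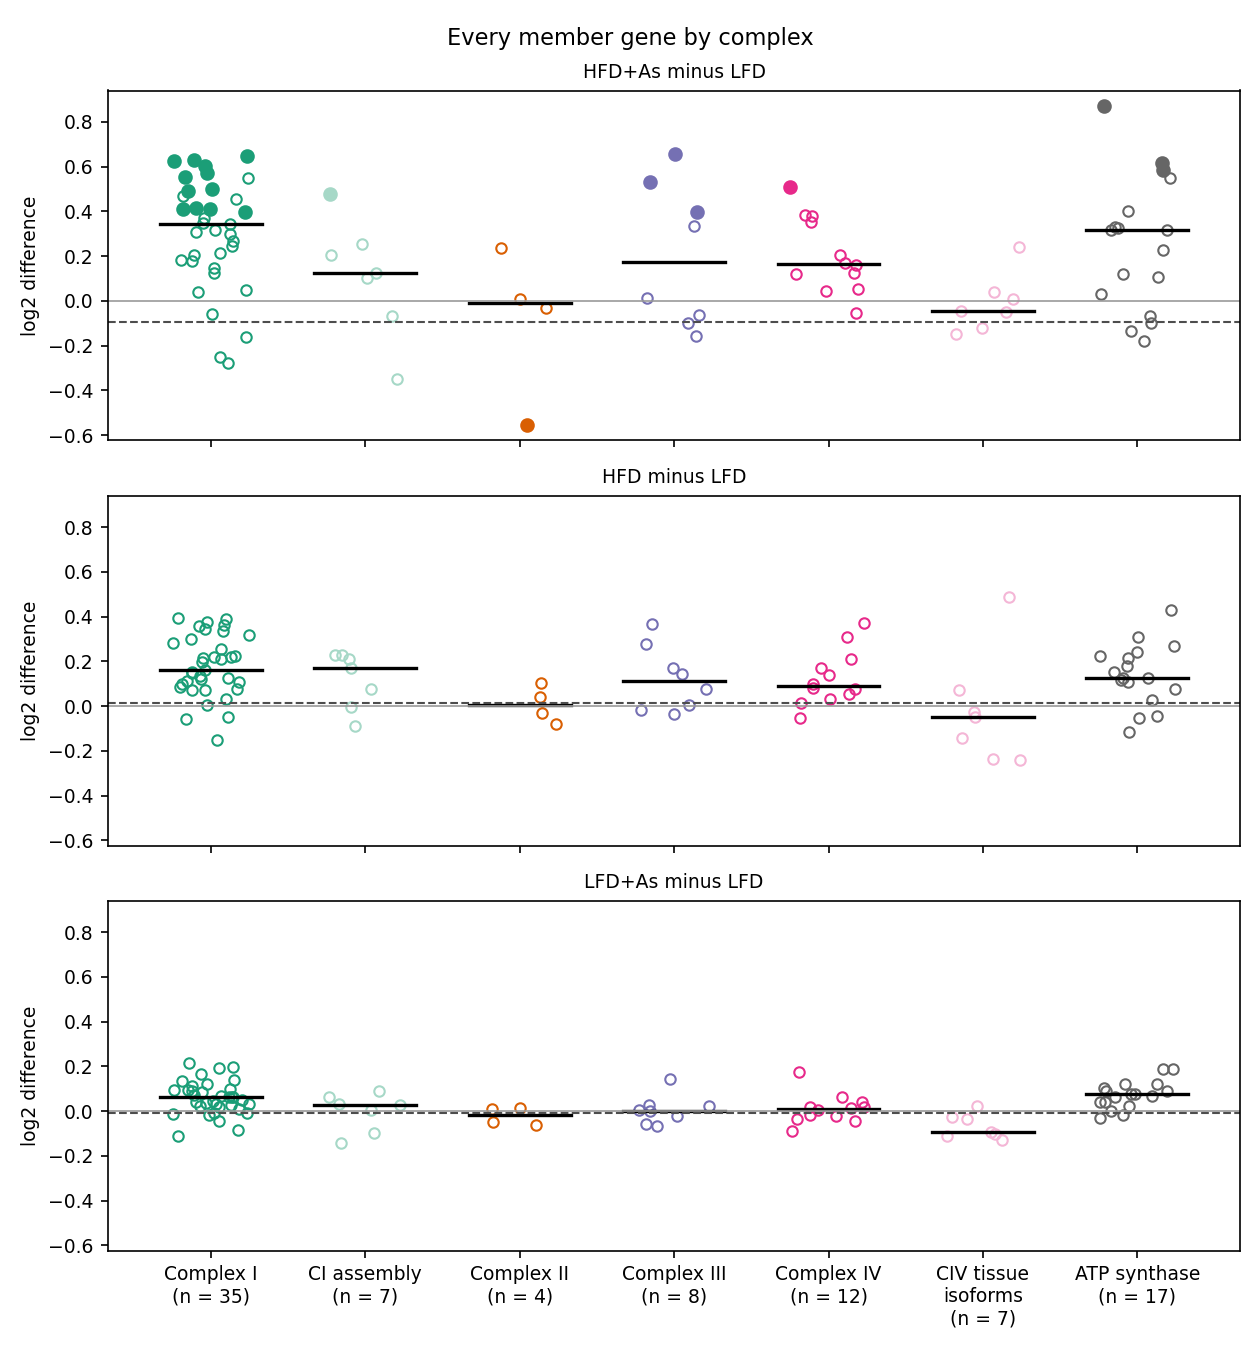
Log2 difference from LFD (vertical axes) of each member gene, by complex, for HFD+As, HFD and LFD+As from top to bottom. Filled points passed an adjusted p of 0.05 among brighter genes, black bars are the medians of each complex, and the dashed line is the median of all brighter genes. In HFD+As the complex I median lies at 0.34 and that of ATP synthase at 0.31, with filled points in the top panel and none in the lower panels.

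ATP synthase held the member with the largest change. Atp5l, subunit g of the membrane sector, read 10.62 and 10.43 in HFD+As pools, 9.80 and 10.13 in HFD pools, 9.70 and 9.82 in LFD+As pools, and 9.77 and 9.54 in LFD pools. Both HFD+As pools were above all other pools. Its log2 difference from LFD was 0.87 (SE 0.14, adjusted p = 0.00407, limma), a 1.83-fold difference, with means of 10.52 ± 0.14 in HFD+As and 9.65 ± 0.16 in LFD (SD, n = 2 each). Its other clusters carry the same symbol and are not counted as independent of it, and all 6 had an adjusted p of 0.0972 (limma) over all clusters. That is the smallest value of any cluster in this comparison, and genes outside the members, such as Coq8a, share it. Atp5md and Atp5k, small subunits at the dimer interface of the membrane sector, rose by 0.61 (adjusted p = 0.00941, limma) and 0.59 (adjusted p = 0.0132, limma).

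Other parts of ATP synthase read differently. The F1 subunits Atp5a1 and Atp5b, the alpha and beta chains that form ATP, differed by -0.13 and -0.18, and Atp5d and Atp5c1 by -0.10 and 0.03, with no call. Atp5e, the small F1 stalk subunit, differed by 0.55, but its HFD+As pools read 9.73 and 8.99 against 9.09 and 8.55 in LFD pools, and the groups overlapped (adjusted p = 0.0902, limma). The 3 genes for the c ring, which turns as protons pass, differed by 0.32 (Atp5g2), 0.23 (Atp5g1) and -0.07 (Atp5g3). A split chosen after the values were seen gave a median of -0.10 for the 5 F1 head and stalk genes and of 0.32 for the other 12. These genes also differ in brightness. Over all arrays Atp5b, Atp5d, Atp5a1 and Atp5c1 averaged 13.80, 13.55, 12.44 and 12.39, where the highest signals were 14.7 to 14.8, and Atp5e averaged 9.07. Atp5g1, Atp5g3 and Atp5g2 averaged 12.60, 12.51 and 12.03. The part of signal level in this split was not tested. The brightest ATP synthase gene, Atp5b, averaged 13.68 in HFD+As pools and 13.86 in LFD pools.

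In complex I, the NADH dehydrogenase, 31 of 35 genes were above 0 with a median of 0.34. Ndufa7, an accessory subunit of the coenzyme Q module, read 10.19 and 10.10 in HFD+As pools, 9.53 and 9.76 in HFD pools, 9.47 and 9.49 in LFD+As pools and 9.62 and 9.42 in LFD pools. Both HFD+As pools were the highest of the 8. Its difference from LFD was 0.62 (SE 0.12, adjusted p = 0.00797, limma). Ndufb8, a membrane arm subunit whose protein is often used as a gauge of assembled complex I, read 10.03 and 10.10 in HFD+As pools against 9.59 and 9.28 in LFD pools, a rise of 0.63 (SE 0.14, adjusted p = 0.0114, limma).

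Ndufs6, a zinc-binding subunit of the NADH module, read 10.49 and 9.93 in HFD+As pools, 9.89 and 9.98 in HFD pools, and 9.66 and 9.46 in LFD pools. Its rise of 0.65 (adjusted p = 0.0183, limma) came with unequal HFD+As pools, and the lower of them lay between the HFD pools. Ndufa2, an accessory subunit of the same module, rose by 0.60 (adjusted p = 0.0117, limma) with 10.98 and 10.88 in HFD+As pools against 10.43 and 10.22 in LFD pools. The weakest call, Ndufa1, rose by 0.50 and had an adjusted p that rounds to 0.05 (limma).

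By module, the median difference of HFD+As from LFD was 0.41 over the 20 genes of the membrane arm, 0.23 over 8 genes of the NADH module and 0.18 over 7 genes of the coenzyme Q module. The core subunits of the arm that takes up electrons, most of which carry flavin or iron-sulphur clusters, gave lower differences. Ndufs1, the largest of them, read 10.19 and 10.72 in HFD+As pools against 10.85 and 10.62 in LFD pools (difference -0.28, adjusted p = 0.262, limma), and its groups overlapped. Ndufv1, which binds NADH and flavin, differed by -0.25 and Ndufs7 by -0.06, while Ndufv2, Ndufs8 and Ndufs3 differed by 0.25, 0.18 and 0.12. Ndufc2 and Ndufb3, the complex I genes with the highest and lowest mean signal, differed by 0.05 and 0.47. In a split made after the values were seen, 6 core genes had a median of 0.03 and the other 29 a median of 0.40. The part of signal level in this split was not tested either.

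Among complex I assembly factors, which help build the complex and leave it, Ndufaf2 rose by 0.48 (adjusted p = 0.0374, limma), with 8.09 and 7.91 in HFD+As pools against 7.74 and 7.31 in LFD pools. Ndufaf1, a factor for the membrane arm, read 10.02 and 10.03 in HFD+As pools against 10.46 and 10.29 in LFD pools. Its difference of -0.35 missed the threshold (adjusted p = 0.0603, limma).

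Complex II, succinate dehydrogenase, held the member that fell. Sdha, the flavoprotein that oxidises succinate and also works in the tricarboxylic acid cycle, read 11.87 and 11.83 in HFD+As pools, 12.45 and 12.20 in HFD pools, 12.30 and 12.41 in LFD+As pools and 12.39 and 12.42 in LFD pools. Both HFD+As pools were below all other pools. Its difference from LFD was -0.55 (SE 0.12, adjusted p = 0.0108, limma), 0.68 times the LFD level, but it was not called without LFD replicate 1, LFD replicate 2 or HFD+As replicate 1. Sdhb, the iron-sulphur subunit, differed by 0.23, and the membrane anchors Sdhc and Sdhd by -0.03 and 0.01, none of them called.

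In complex III, Uqcr10, a small accessory subunit, read 10.40 and 10.25 in HFD+As pools, 9.67 and 9.95 in HFD pools, 9.50 and 9.70 in LFD+As pools and 9.72 and 9.62 in LFD pools. Both HFD+As pools were again the highest. It rose by 0.66 (SE 0.13, adjusted p = 0.00809, limma), and Uqcrh and Uqcrq rose by 0.53 and 0.40. The core proteins Uqcrc1 and Uqcrc2 and the Rieske iron-sulphur protein Uqcrfs1 differed by -0.06, -0.10 and -0.16, none called. Cyc1, cytochrome c1 of this complex, lies outside the name rule and differed by 0.14, also without a call. Uqcrb, the brightest complex III gene, differed by 0.01.

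In complex IV, cytochrome c oxidase, 11 of 12 genes were above 0 with a median of 0.17. Cox7a2l, counted here by its symbol and carried by this strain as a short allele, read 8.96 and 8.64 in HFD+As pools against 8.35 and 8.23 in LFD pools. It rose by 0.51 (adjusted p = 0.0199, limma). Cox4i1 differed by 0.39, Ndufa4 by 0.38, Cox7a2 by 0.35 and Cox7b by 0.21, without a call. Cox8a, Cox6b1 and Cox6c, the brightest complex IV gene, differed by 0.12, 0.05 and 0.05, and Cox6a1 by -0.05. Of the isoforms known from other tissues, Cox7a1 differed by 0.24, and Cox4i2, Cox6a2, Cox6b2, Cox7b2, Cox8b and Cox8c lay between -0.15 and 0.04. Their median of -0.05 was close to the -0.10 of all brighter genes.

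**Figure D2:**
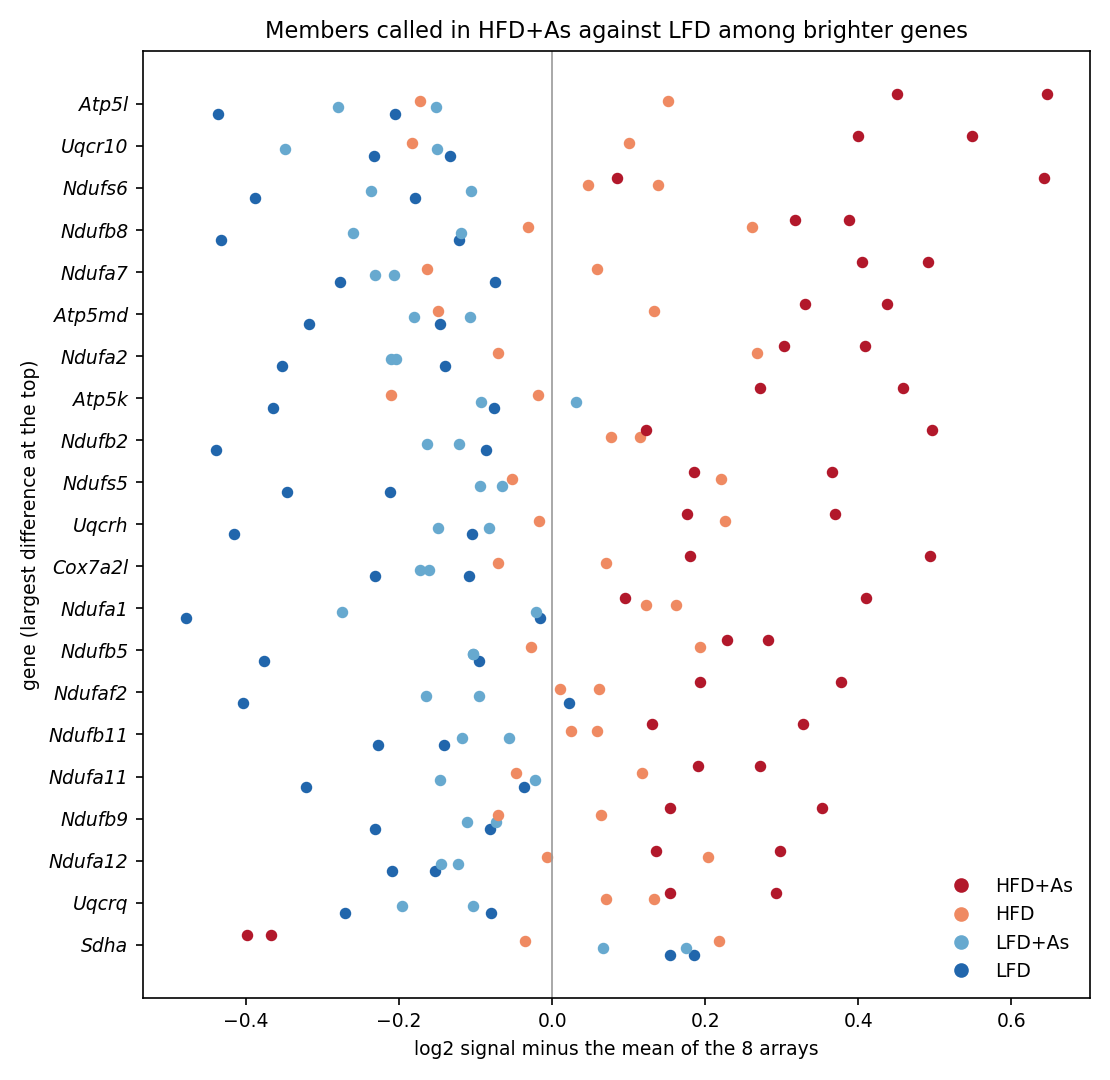
Log2 signal of the 21 members called in HFD+As against LFD among brighter genes, as the deviation of each pool from the mean of the 8 arrays (horizontal axis), with 1 gene per row and 1 point per pool of 5 mice. HFD+As pools lie to the right of LFD pools in 20 rows and to the left for Sdha.

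HFD livers showed smaller differences from LFD livers, and the limma fit called none of the 85 members (0.46% of brighter genes called). At an unadjusted p under 0.05, 16 members were higher (18.8%, against 7.07% of brighter genes) and 0 lower (3.23% of brighter genes). The median over 91 genes was 0.12 with 73 above 0, against 0.01 over brighter genes. Complex I had a median of 0.16, ATP synthase 0.12, complex III 0.11, complex IV 0.09 and complex II 0.01. Single pools moved these medians by over 1.5 times. The median over the 85 tested members, 0.14, became 0.07 when LFD replicate 2 was left out and 0.08 when HFD replicate 2 was. It became 0.21 with LFD replicate 1 left out. Without LFD replicate 2 complex I had a median of 0.08 and complex IV of 0.03, and without HFD replicate 2 complex III had a median of 0.000433. The groups did not overlap in 42 higher members (49.4%, against 21.7%) and in 5 lower ones (5.88%, against 16.5%).

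The smallest adjusted p in HFD against LFD was that of Cox7a1, the heart and muscle isoform of subunit 7a. It read 7.79 and 7.97 in HFD pools against 7.63 and 7.16 in LFD pools, a difference of 0.49 (adjusted p = 0.264, limma). Cox7a2, the liver form of the same subunit, read 11.09 and 11.15 in HFD pools against 10.84 and 10.65 in LFD pools, a difference of 0.37. Ndufb8, Ndufs5 and Ndufa8 differed by 0.39, 0.36 and 0.34, and Ndufs7, Atp5d and Cox6b2 by -0.15, -0.12 and -0.14. Macrophage markers also stood higher in HFD livers, with 9.84 and 9.67 over 11 genes against 9.54 and 9.46 in LFD livers, and their part in these differences was not tested.

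LFD+As livers gave the smallest member differences from LFD livers of the 3 exposed groups, by their median. None of the 85 members was called (0.0669% of brighter genes called) and none had an unadjusted p under 0.05, against 3.35% of brighter genes. The median over 91 genes was 0.03, and the medians of complexes I to IV and ATP synthase lay between -0.02 for complex II and 0.08 for ATP synthase. Ndufb6, a membrane arm subunit, had the largest difference, 0.21, with 11.38 and 11.53 in LFD+As pools against 11.39 and 11.09 in LFD pools. Without LFD replicate 2, the lowest of the 8 arrays over the members, the median over the 85 tested members became -0.03, against 0.03 with it, and it was 0.11 without LFD replicate 1. The ATP synthase median was 0.00735 without LFD replicate 2.

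Arsenite on the high-fat diet, HFD+As against HFD, called 4 of 85 members (4.71%, against 3.63% of brighter genes). Ndufa7 rose by 0.50 (adjusted p = 0.0464, limma), Uqcr10 by 0.52 (adjusted p = 0.0492, limma) and Atp5l by 0.56 (adjusted p = 0.0481, limma), and Sdha fell by 0.47 (adjusted p = 0.0491, limma). Higher calls made up 3.53% of members and 0.376% of brighter genes, and lower calls 1.18% and 3.25%. All 4 adjusted p-values were close to the threshold. They were lost without HFD replicate 1 or either HFD+As or LFD pool, and Atp5l was the one kept without either LFD+As pool. They were also lost with quantile normalization, with arrays centred on the median and with the span trend removed. In these fits 0.176%, 0.134% and 0.159% of brighter genes were called higher, and 0.694%, 0.911% and 0.427% lower. The median over 91 genes was 0.10, against -0.12 over brighter genes. Over the 85 tested members it was 0.09, which became 0.05 without HFD replicate 1 or HFD+As replicate 1 and 0.14 without HFD replicate 2. Macrophage markers stood at 9.49 and 9.25 over 11 genes in HFD+As livers against 9.84 and 9.67 in HFD livers. They had 1 of 11 above 0, a median of -0.39 and 2 called lower (18.2%, against 3.25% of brighter genes). Sinusoidal endothelial markers stood at 9.20 and 9.18 over 7 genes against 9.78 and 9.37, with 0 of 7 above 0 and 1 called lower (14.3%, against 3.25%). The part of these cells in the comparison was not tested.

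High-fat feeding under arsenite, HFD+As against LFD+As, called 8 of 85 members (9.41%, against 10.3% of brighter genes). The 7 that rose (8.24%, against 1.82%) were Atp5l by 0.76, Uqcr10 by 0.72, Ndufa7 by 0.67, Ndufa2 by 0.56, Ndufb8 by 0.54, Atp5md by 0.53 and Cox7a2l by 0.50. Sdha fell by 0.50 (adjusted p = 0.0265, limma), as 1.18% of members against 8.43% of brighter genes. The calls were lost without HFD+As replicate 1 or LFD+As replicate 2, and without LFD+As replicate 1 Ndufa7 and Atp5l remained. Calls over all brighter genes also became fewer in each of these fits. The median over the 85 tested members, 0.185, became 0.161, 0.194 and 0.157 in that order. With arrays centred on the median, or with the span trend removed, Ndufa7, Uqcr10 and Atp5l remained. There 0.56% and 0.41% of brighter genes were called higher, and 1.23% and 0.912% lower. Of the sinusoidal endothelial markers 1 of 7 was above 0 and 3 were called lower (42.9%, against 8.43% of brighter genes), and their part was not tested. The median over 91 genes was 0.18, and the groups did not overlap in 48 higher members (56.5%, against 15.6% of brighter genes).

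The interaction, which asks whether the arsenite difference on the high-fat diet departs from that on the low-fat diet, called 0 of 85 members and 0% of brighter genes in limma. At an unadjusted p under 0.05 it held 4 members (4.71%, against 13.9% of brighter genes). Uqcr10 had an interaction of 0.58 (adjusted p = 0.252, limma), Ndufa7 of 0.54, Atp5l of 0.45 and Sdha of -0.43. A difference between the 2 arsenite effects was therefore not shown for any member at this number of arrays.

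Diet was compared at each water with different arrays, so the 2 sets of differences can be placed side by side. Of the 85 tested members, 62 were above 0 in both HFD+As against LFD+As and HFD against LFD (72.9%, against 22.1% of brighter genes). Across these 85 genes, which share arrays and are not independent replicates, the 2 diet differences had a Pearson correlation of 0.648 and a Spearman correlation of 0.695, against 0.352 and 0.313 over all brighter genes. For arsenite, 46 members were above 0 on both diets (54.1%, against 12.4%), with a Pearson correlation of 0.283, against 0.0351.

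**Figure D3:**
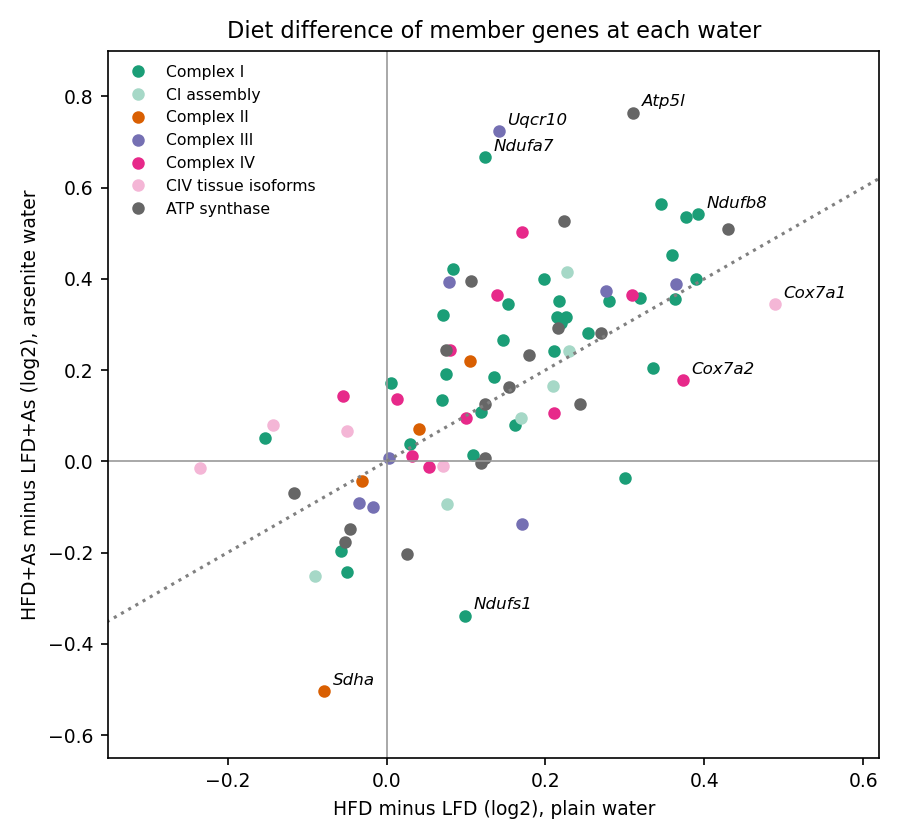
Diet difference under arsenite (HFD+As minus LFD+As, vertical axis) against the diet difference on deionized water (HFD minus LFD, horizontal axis), both log2, for the 85 members among brighter genes, coloured by complex. The dotted line marks equal differences, and Atp5l, Uqcr10 and Ndufa7 lie above it at 0.76, 0.72 and 0.67 under arsenite.

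The HFD+As pools stood highest for complexes I, III and IV and ATP synthase. The median deviation of the 91 genes from their 8-array mean was 0.15 and 0.09 in HFD+As pools, -0.01 and 0.07 in HFD pools, -0.08 and -0.05 in LFD+As pools and -0.03 and -0.17 in LFD pools. Both HFD+As pools lay above all others over the 91 genes, and LFD replicate 2 was the lowest. Complex I deviated by 0.29 and 0.12 in HFD+As pools, so replicate 1 carried more of its level, whereas ATP synthase deviated by 0.12 and 0.11. Over all brighter genes the HFD+As pools were the lowest, at -0.08 and -0.07, with LFD pools at 0.07 and -0.02.

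**Figure D4:**
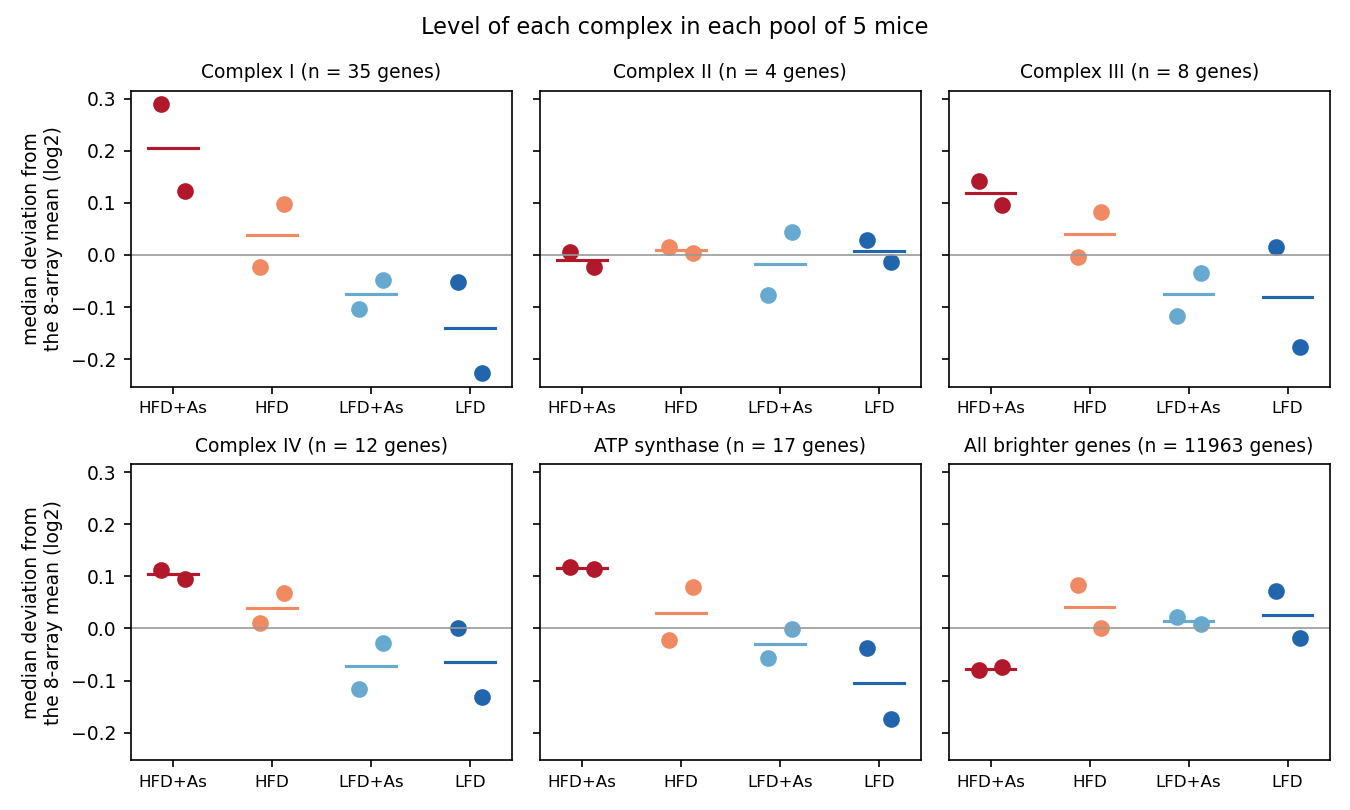
Median deviation from the 8-array mean (log2, vertical axis) of the genes of each complex and of all brighter genes, for each pool of 5 mice. Points are arrays and bars are group means. HFD+As pools are highest for complexes I, III and IV and ATP synthase, at 0.29 and 0.12 for complex I, and lowest for all brighter genes.

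Gene length moved with the HFD+As minus LFD differences over brighter genes, and less so over the members. Members are short genes, with a median genomic span (introns included) of 7279 bases against 21380 for brighter genes. Over brighter genes the HFD+As minus LFD difference had a Spearman correlation of -0.412 with span, against -0.189 over the 85 members. For HFD minus LFD these were -0.143 and -0.0603, and for LFD+As minus LFD 0.00964 and 0.143. An array's deviations over brighter genes correlated with span at -0.454 and -0.293 in HFD+As and 0.245 and -0.136 in HFD. They did so at 0.220 and 0.346 in LFD+As, and 0.342 and 0.138 in LFD. Among genes of up to 6758 bases, the lowest of 5 equal classes of span, 36 members had a median of 0.31 against 0.03 for all genes of that class, and in the next class (up to 15376 bases) 34 members had a median of 0.24 against -0.04. With the trend on span removed from each array, 16 members rose and Sdha fell in HFD+As against LFD, against 3.24% and 5.65% of brighter genes, and the median of the 85 tested members was 0.24.

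**Figure D5:**
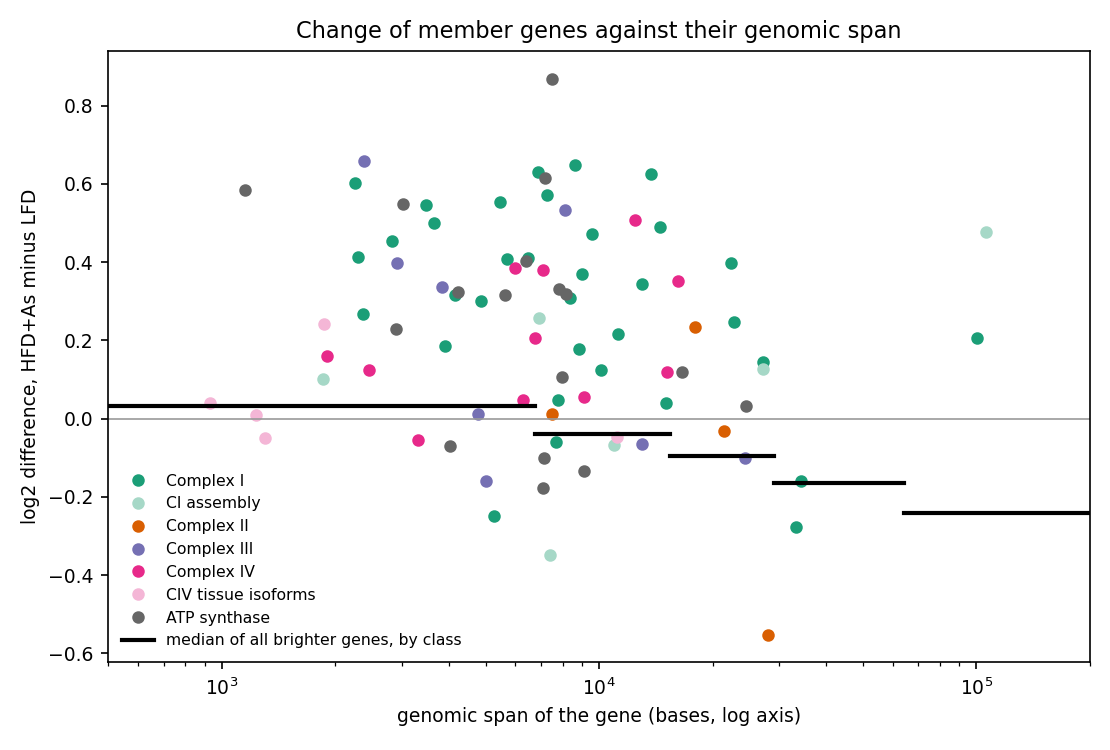
HFD+As minus LFD difference (log2, vertical axis) of the 85 members among brighter genes against the genomic span of the gene in bases (log axis), coloured by complex. Black bars are the medians of all brighter genes in 5 equal classes of span. In the shortest class 31 of 36 members lie above 0, against a bar at 0.03, and the bars descend to -0.24 in the longest class.

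Genes that work with the chain did not all move as these subunits did. How the calls of these other genes depend on single pools was not examined. Of 38 assembly factors outside the name rule, 36 were among the brighter genes, and in HFD+As against LFD 4 of these rose (11.1%, against 3.59% of brighter genes) and 1 fell (2.78%, against 12.4%). Their median was 0.06. Uqcc2, a complex III assembly factor, read 11.05 and 10.26 in HFD+As pools against 9.98 and 9.62 in LFD pools (difference 0.85, adjusted p = 0.0169, limma). Coa6, which helps deliver copper to complex IV, rose by 0.60, and Coa5, another complex IV assembly factor, fell by 0.64 (adjusted p = 0.00822, limma).

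Of 18 brighter genes for electron carriers and coenzyme Q synthesis, 2 fell and none rose, and the share that fell, 11.1%, was near the 12.4% of brighter genes. Coq8a, an atypical kinase needed for coenzyme Q synthesis, read 11.04 and 10.96 in HFD+As pools, 11.73 and 11.38 in HFD pools, 11.40 and 11.94 in LFD+As pools and 12.09 and 12.08 in LFD pools. Its difference from LFD was -1.08 (SE 0.17, adjusted p = 0.00333, limma), and the second to fall was Coq5, by 0.37. Among 8 brighter genes of ATP, ADP and phosphate exchange and uncoupling, 1 was called (12.5% higher, against 3.59% of brighter genes), as Vdac3, an outer membrane channel, rose by 0.40.

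Of 18 genes of the tricarboxylic acid cycle and pyruvate dehydrogenase, 4 fell (22.2%, against 12.4% of brighter genes) and none rose (against 3.59%). Their median was -0.18 with 4 above 0, against a median of -0.10 with 33.4% above 0 over brighter genes. Cs, citrate synthase, read 10.69 and 10.73 in HFD+As pools against 11.23 and 11.19 in LFD pools, a difference of -0.49 (adjusted p = 0.0123, limma). Dlst, Suclg2 and Dlat fell by 0.56, 0.52 and 0.45. Of 16 regulators of mitochondrial biogenesis, 2 fell (12.5%), a share like the 12.4% of all brighter genes. They were the coactivators Ppargc1a, by 0.85 (adjusted p = 0.00696, limma), and Ppargc1b, by 0.45. Ppargc1a, Ppargc1b and Suclg2 span 661605, 109312 and 245850 bases, in the longest class, where the median of all brighter genes was -0.24. Cs, Dlst and Dlat span 24756, 23270 and 25148 bases, in the middle class, where it was -0.10. The part of gene length in these falls was not tested. The transcription factor gene Nrf1 differed by 0.02 and Tfam, which packages mitochondrial DNA, by 0.28 without a call. In HFD and in LFD+As against LFD, 0 genes of these lists were called.

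Mitochondrially encoded subunits were covered by 4 of 13 genes. ND3 differed by 0.12, COX2 by 0.08 and the cluster annotated to Gm10925 and ATP6 by 0.08 between HFD+As and LFD, with signals of 13.4 or more on every array. The cluster annotated to both ND6 and Acsm2 read 8.39 and 7.36 in HFD+As pools against 6.32 and 6.31 in LFD pools, and the gene behind it cannot be told from the annotation. Sinusoidal endothelial markers stood lower in HFD+As livers, at 9.20 and 9.18 over 7 genes against 9.65 and 9.46 in LFD livers. Of these, 1 of 7 was above 0 and 3 were called lower (42.9%, against 12.4% of brighter genes). Neutrophil markers stood at 6.97 and 6.76 over 6 genes in HFD+As livers against 6.33 and 6.50 in LFD livers. Of these, 4 were above 0, while Mpo and Elane differed by -0.11 and -0.06. Only S100a9 was among the brighter genes, and it was called higher (3.59% of brighter genes were). The part of either cell type in the changes of the subunits was not tested.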

How the data were processed

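Liver RNA from 4 groups of 10 mice was measured on 8 Affymetrix mouse gene arrays, 2 pools of 5 mice per group. The authors' deposited table holds a log2 signal for each transcript cluster and array. Per the submitters' processing notes, the software was Affymetrix Expression Console 1.0. The background correction and normalization are not given in the sources used here, and the table has no detection calls. Array medians lay between 7.08 and 7.18, and the values were used as they are.

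Gene symbols came from the platform annotation, and spans and promoters from RefSeq (GRCm38.p6). Groups were compared with limma 3.58.1 in R 4.3.3, in 1 fit of 4 group means to all 8 arrays with 4 residual degrees of freedom, two-sided, with Benjamini-Hochberg adjustment within each comparison. The first fit tested all 35556 clusters (prior degrees of freedom 2.91). A second fit kept genes with 1 symbol and the 60% with the highest mean, 11963 genes (prior degrees of freedom 9.32), and its calls are named beside the 0 calls of the first fit. That the text leads with the brighter-gene calls was decided after the values were seen. Precision is limited by the number of arrays. Among brighter genes, a difference between 2 groups had a standard error of 0.127 at the median.

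The rule for named genes took called members whose groups did not overlap, up to 10 in each direction by size, or the smallest unadjusted p where fewer than 5 were called, the brightest and dimmest member of each complex, all complex II genes, and the isoforms of complex IV and the c ring. Where all called members are listed, those beyond 10 were named after their values were seen. The members, lists and groupings were chosen with earlier results of these data known. The fits were also run on simulated arrays with independent noise for each gene and no shift shared by the genes of a pool. That run cannot show how such shared shifts affect the calls. Alternatives were quantile normalization, centring, an intensity trend, removal of the trend on span, a replicate block, only the 2 groups compared, and leaving out each array.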

Additional observations from a re-analysis of the deposited data

How the results depend on the processing

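Over all clusters, 0 members were called in each comparison. Restricting to brighter genes gave 21 calls in HFD+As against LFD, 4 in HFD+As against HFD and 8 in HFD+As against LFD+As, and removing the trend on gene span over all clusters gave 16 in HFD+As against LFD. The alternatives on brighter genes were chosen after the data were seen. There, HFD+As against HFD gave 2 calls with an intensity trend, 1 with only the 2 groups in the fit, and 0 with quantile normalization, arrays centred on the median, the span trend removed or a replicate block. HFD+As against LFD+As gave 3 with centring and 3 with the span trend removed. HFD+As against LFD gave 14 to 27 under those alternatives. Shares of brighter genes moved too, but were not taken for the fit of only 2 groups. In the settings with 0 calls in HFD+As against HFD, 0.134% to 0.276% were higher and 0.427% to 1.65% lower. The main fit gave 0.376% and 3.25%. For HFD+As against LFD+As they were 0.56% and 1.23% with centring, and 0.41% and 0.912% with the span trend removed. For HFD+As against LFD they were 2.42% to 4.74% higher and 5.65% to 12.3% lower. The cause of these shifts was not tested. Leaving out 1 array gave 1 to 25 calls in HFD+As against LFD, 0 to 6 in HFD+As against HFD, 0 to 12 in HFD+As against LFD+As, and 0 to 0 elsewhere, where the single remaining array of a group is assumed to vary like the other groups. None of the members called in these 3 comparisons changed direction.

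The replicate block gave 17 calls in HFD+As against LFD (3.3% of brighter genes higher and 10.8% lower) and 8 in HFD+As against LFD+As (1.42% and 6.25%). Replicate-1 deviations of the groups correlated at -0.217 to 0.179. These values do not show that the numbers pair the pools, and they cannot exclude it.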
